A study of Helianthus annuus with 6 samples.

Results

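Among the genes expressed in sunflower petioles, 200 varied least over the 6 libraries of 2 inbred lines, and these steady genes are described here. Petiole RNA of cultivated sunflower, Helianthus annuus, was sequenced from 3 libraries of 20G, a leaf-compact inbred line with a small petiole inclination angle, and from 3 libraries of 19G, a leaf-flat inbred line with a large one. No treatment, genotype beyond the line or plant age is given in the labels, and leaf form cannot be told apart from any other difference between the lines. The genes were chosen from the measured values themselves. A RefSeq gene was eligible if it reached 10 FPKM (fragments per kilobase per unit of mapped fragments, a level scaled to transcript length and to the library's total) in all 6 libraries and was not among the 100 loci of highest mean FPKM. Of 57126 RefSeq genes, 7147 were eligible, and the 200 with the lowest coefficient of variation (CV, the SD over the mean of the 6 FPKM values) were kept. They are 2.80% of the eligible genes, and 70842 loci were listed in all.

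Genes with steady transcript levels serve as internal references: in quantitative PCR the level of a target is divided by that of genes assumed to be constant across samples. In plants the usual references encode cytoskeletal proteins, translation factors, ubiquitin pathway proteins, a glycolytic dehydrogenase and protein phosphatase subunits. A reference gene is tied to its tissue and to the set of samples in which it was assessed, which is why steadiness is usually reassessed for each experiment. Such a scaled level is a share of the library, so a gene of constant abundance changes in FPKM when other transcripts take up more or less of the total. The sources used here do not pair the sunflower identifiers with gene products, so no role is given to any of the genes, whether they include the usual references was not analysed here, and the tissue label was not checked against marker genes.

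Summed FPKM was 660268 to 701884 in the libraries of 20G and 638235 to 685174 in those of 19G. FPKM is already scaled to the library's total, so these like sums do not measure sequencing depth. Replicate 1 of 19G stood apart from the other libraries. The 100 most abundant loci took 22.5% of its summed FPKM, against 15.1% and 15.4% in the other libraries of 19G, and they took 17.3% to 20.2% in 20G. Over the 7147 eligible genes, the median log2 ratio of the library's value to the gene's own mean was -0.14 in 19G replicate 1 and between -0.02 and 0.03 in the other 5 libraries. Results that rest on 19G replicate 1 are given with and without it. The labels do not state if the 3 libraries of each line represent different plants, and their spread may be technical.

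The steadiest gene of all, LOC110895706, stood at 39.4, 41.0 and 39.03 FPKM in 20G and at 40.8, 38.9 and 40.6 FPKM in 19G, a CV of 2.42%. The 2 lines interleaved, and its highest value was 1.06 times its lowest. LOC110915444 stood at 54.5, 53.3 and 52.3 FPKM in 20G and at 53.3, 52.7 and 56.2 FPKM in 19G, with a CV of 2.67%. LOC110900223 stood at 38.0, 38.9 and 38.3 FPKM in 20G and at 40.8, 39.7 and 38.0 FPKM in 19G, with a CV of 2.79%. These were the only genes of the 200 with a CV under 3%, and in each the values of both lines overlapped.

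The next genes by CV lay at lower, like and higher levels. LOC110939678 had 26.6, 25.7 and 26.4 FPKM in 20G and 24.8, 26.9 and 27.3 FPKM in 19G, its lowest value being that of 19G replicate 1. LOC110891030 had 40.4, 38.8 and 43.0 FPKM in 20G and 40.1, 38.99 and 41.1 FPKM in 19G. LOC110911738 had 60.6, 62.6 and 61.0 FPKM in 20G and 55.9, 60.5 and 62.5 FPKM in 19G. The first and last of these 3 genes had a CV of 1.67% and 1.72% within 20G, and of 5.21% and 5.70% within 19G, where replicate 1 was low. LOC110891030 ran the other way, with a CV of 5.17% within 20G and 2.67% within 19G.

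Close to the 10 FPKM floor lay 3 of the 10 steadiest genes. LOC110895255 stood at 12.7, 12.5 and 12.3 FPKM in 20G and at 13.2, 12.8 and 11.98 FPKM in 19G. LOC110937352 stood at 11.5, 10.7 and 11.2 FPKM in 20G and at 10.7, 10.3 and 10.9 FPKM in 19G. LOC110884193 stood at 11.9, 11.3 and 11.1 FPKM in 20G and at 11.8, 10.9 and 11.01 FPKM in 19G. In all 3 the highest library was at most 1.11 times the lowest. LOC110899472, between these and the rest in level, had 19.2, 18.1 and 17.7 FPKM in 20G and 19.1, 18.2 and 17.4 FPKM in 19G, a log2 ratio of 20G over 19G of 0.01.

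**Figure D1:**
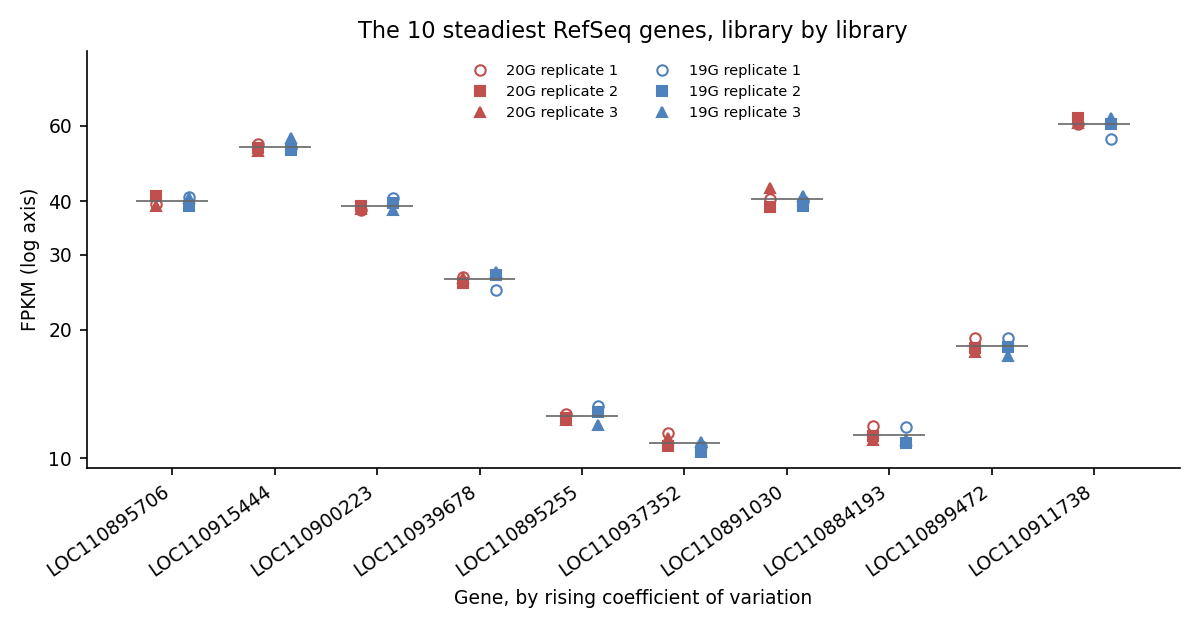
FPKM (log axis) of the 10 genes with the lowest CV, in the 3 libraries of 20G (left, red) and the 3 of 19G (right, blue) for each gene, with the mean of the 6 as a grey line. In each gene the points of both lines lie around the same mean, and 19G replicate 1 (open blue circle) is the lowest point in LOC110939678 and LOC110911738.

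The 200 genes spanned levels of 10.8 to 368 FPKM, with a median of 29.7 FPKM, beside a median of 31.2 FPKM over all eligible genes. FPKM is scaled to transcript length, so levels can be set side by side between genes. The most abundant was LOC110889861, at 325, 361 and 360 FPKM in 20G and at 402, 383 and 375 FPKM in 19G, where the 3 values of 20G all lay below those of 19G. LOC110865976 had 233, 207 and 213 FPKM in 20G and 231, 220 and 225 FPKM in 19G. LOC110884346 had 213, 206 and 224 FPKM in 20G and 184, 222 and 203.1 FPKM in 19G. Both overlapped between the lines. The 3 lowest in level were LOC110908699, LOC110937352 and LOC110908866, with means of 10.8, 10.9 and 10.9 FPKM.

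Their CVs ran from 2.42% to 7.38%, with a median of 6.36%, against a median of 20.6% over all eligible genes. The median gene of the 200 had a highest value 1.18 times its lowest, and the widest-ranging a highest value 1.25 times its lowest, while the median eligible gene ranged over 1.74 times. These figures follow from the choice and are no finding. The boundary fell in a dense part of the distribution. LOC110889442, LOC110918581 and LOC110879551, the last inside, had CVs of 7.380%, 7.383% and 7.384%. LOC110865768, LOC110909030 and LOC110898913, the first outside, had CVs of 7.39%, 7.41% and 7.45%. Genes on either side of the line cannot be distinguished by these values.

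Steady genes were found at every level. When the eligible genes were divided by mean FPKM into 10 bins of like size, between 13 and 36 of the 200 fell in each. The lowest bin, from 10.8 to 15.4 FPKM, held the most, 36 genes or 5.03% of its members. The highest, from 118 to 534 FPKM, held the fewest, 13 genes or 1.82%. The median CV of all eligible genes was 14.3% in the lowest bin and 28.2% in the highest. In the lowest bin the rule itself narrows the spread, because a gene with a mean near 10 FPKM could be eligible only if no library fell below the floor. Of the 200 genes, 72 were under 20 FPKM in at least 1 library.

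**Figure D2:**
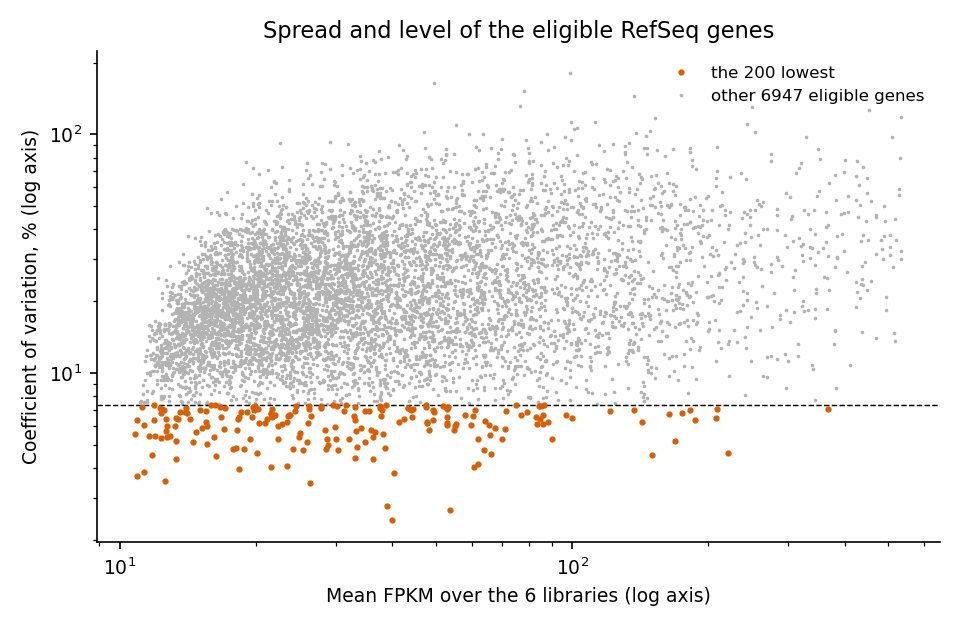
CV over the 6 libraries (percent, log axis) against mean FPKM (log axis) for the 200 genes with the lowest CV (orange) and the other 6947 eligible genes (grey), with the CV of the last gene kept, 7.38%, as a dashed line. The 200 lie along the whole range of levels, and the grey cloud narrows near 10 FPKM, where the floor cuts off genes with wider spread.

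The levels of the 200 genes in the 2 lines differed little, as their choice requires. The log2 ratio of the 20G mean to the 19G mean ran from -0.15 to 0.17, with a median of 0.03, against -3.28 to 3.50 and a median of 0.02 over all eligible genes. The 20G mean was the higher one in 126 of the 200 (63.0%), beside 52.8% of the eligible genes. That count is in deposited FPKM and includes 19G replicate 1, in which 66.5% of the 200 and 64.8% of the eligible genes lay below their own mean. No direction between the lines is read from it. LOC110900230 had the largest ratio of the 200: it stood at 38.5, 40.2 and 40.2 FPKM in 20G and at 34.6, 33.9 and 37.4 FPKM in 19G, with no overlap and a 20G mean 1.12 times that of 19G. LOC110895837 stood at 21.6, 22.9 and 23.6 FPKM in 20G and at 19.8, 21.0 and 20.4 FPKM in 19G, also without overlap. LOC110941163 stood at 90.5, 85.9 and 92.7 FPKM in 20G and at 84.8, 82.8 and 75.1 FPKM in 19G, again without overlap.

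In the other direction, after LOC110889861, the smallest ratios were those of LOC110918581 and LOC110942301. LOC110918581 had 42.1, 48.1 and 45.1 FPKM in 20G and 47.9, 49.98 and 52.0 FPKM in 19G, and the lines overlapped only in that the highest value of 20G lay above the lowest of 19G. LOC110942301 had 131, 132 and 127 FPKM in 20G and 134, 142 and 153 FPKM in 19G, without overlap and with a log2 ratio of -0.14. Among the 200 genes, 12 had all 3 values of 20G above those of 19G and 5 had all 3 below. Over the 28292 loci tested for a difference between the lines, those with at least 1 FPKM in 3 or more libraries, 18.0% had no overlap with 20G higher and 16.4% had none with 20G lower.

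In the fit of all 28292 loci with limma, 17.1% passed both limits, a p under 0.05 after Benjamini-Hochberg adjustment and line means at least 1 apart in log2, and 0 of the 200 genes did. At an adjusted p under 0.05 alone 20.6% of loci and 0 of the 200 genes passed, and at an unadjusted p under 0.05 the figures were 29.8% of loci and 0 of the 200. Nothing is read from these counts, because the same 6 values chose the genes.

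Within the lines the 200 genes were about equally steady. Their median CV was 5.90% within 20G and 5.43% within 19G, and 101 of the 200 had the higher CV in 20G. These low and like CVs follow from the choice, since a wide spread within either line would raise the CV over all 6 libraries. Over all eligible genes the median CV was 14.1% within 20G and 18.0% within 19G, and 38.4% had the higher CV in 20G. All values in this paragraph include 19G replicate 1, so the wider spread within 19G is not read as a trait of the line. Across the 7147 eligible genes, which share their libraries and are not independent, Spearman's rho between the CVs within 20G and within 19G was 0.24.

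The extremes of the 200 genes were spread over all 6 libraries. The library 19G replicate 1 held the lowest value of 60 of the 200 genes and of 35.7% of all eligible genes. It held the highest value of 23 of the 200. The highest value lay in 20G replicate 1 for 46 of the 200 (23.0%), beside 15.2% of the eligible genes. In 20G replicate 3 lay the highest value of 32 of the 200 (16%), beside 10.6% of the eligible genes, and the lowest of 30 (15%), beside 9.74%. The median log2 ratio to the gene's own mean in 19G replicate 1 was -0.04 for the 200 and -0.14 for all eligible genes. In the other 5 libraries the medians for the 200 lay between -0.01 and 0.02. In 19G replicate 1, 66.5% of the 200 and 64.8% of all eligible genes lay below their own mean. The smaller median displacement of the 200 follows from their choice, since a gene far from its mean in any library cannot have a low CV.

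That displacement depends on the scale. Median-of-ratios scaling multiplies each library by one factor so that the typical RefSeq gene detected in every library keeps its level. The factor by which values were divided was between 0.975 and 1.04 for the libraries of 20G, 0.870 for 19G replicate 1, and 1.06 and 1.08 for the other libraries of 19G. After this scaling, the 200 genes had a median log2 ratio to their own mean of 0.17 in 19G replicate 1, and of -0.09 and -0.10 in 19G replicates 2 and 3. All eligible genes then had a median of 0.07 in 19G replicate 1. The median CV of the 200 became 9.22%, against 6.36% in deposited FPKM, while that of the 200th gene chosen anew on the scaled values was 6.69%. Dividing each library by its summed FPKM left the 200 at a median of -0.08 in 19G replicate 1. Whether the larger share taken by the most abundant loci in that library is what lowered the rest was not tested.

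**Figure D3:**
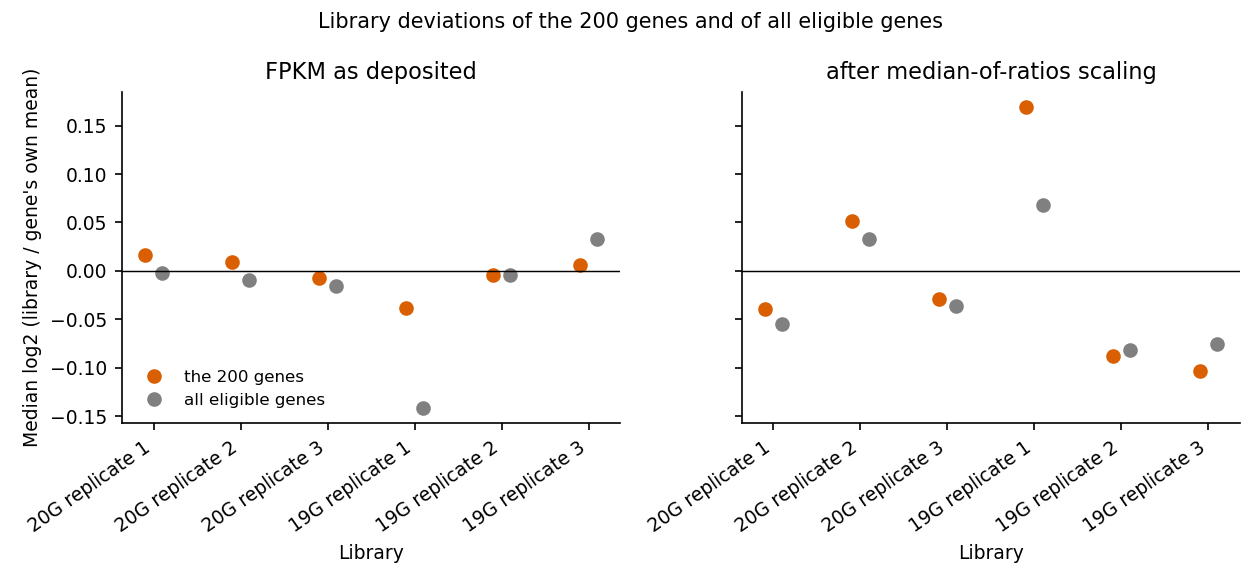
Median log2 ratio of each library's value to the gene's own mean over the 6 libraries, for the 200 genes (orange) and all 7147 eligible genes (grey), in FPKM as deposited (left panel) and after median-of-ratios scaling (right panel). In deposited FPKM the eligible genes are low in 19G replicate 1 at -0.14 and the 200 at -0.04, and after scaling the 200 stand at 0.17 there.

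A measure that did not enter the choice was obtained by choosing 200 genes on 5 libraries, with the same floor and exclusions, and reading them in the sixth. In 20G replicate 3, 94.0% of genes so chosen lay within 1.25-fold of their mean over the other 5 libraries, beside 71.8% of all genes eligible on those 5. The share in 20G replicate 1 was 87.5%, beside 66.8% of eligible genes. In 19G replicate 2 it was 90.5%, beside 60.6%, and in 19G replicate 3 it was 88.5%, beside 60.7%. In these 4 libraries the genes so chosen were closer to their earlier level than eligible genes in general, with median absolute log2 deviations of 0.12 to 0.15 against 0.19 to 0.25. Each left-out library gave its own list, and these 4 lists shared 129 to 140 genes with the 200 described above. The shares are therefore those of the lists, not of the 200.

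In the remaining libraries the chosen genes were also closer to their earlier level than eligible genes, but fewer of either stayed near it. The median absolute log2 deviation was 0.21 for the chosen and 0.28 for the eligible genes in 20G replicate 2, and 0.31 and 0.38 in 19G replicate 1. In 20G replicate 2 the share within 1.25-fold was 67.5%, beside 56.6% of eligible genes. In 19G replicate 1 it was 52.5%, beside 42.2%. There, 158 of the 200 chosen genes (79.0%) lay below their mean of the other 5 libraries, and the median chosen gene stood at 83.0% of it. The median log2 deviation was -0.27 for the chosen genes and -0.22 for all genes eligible on those libraries. After median-of-ratios scaling, tried once the data had been seen, the share within 1.25-fold in 19G replicate 1 was 76.5%, beside 48.3% of eligible genes, and the median deviation of the chosen genes was 0.00.

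The lowest-CV genes without 19G replicate 1, named after their values were seen, show both kinds of behaviour. LOC110915332 stood at 57.3, 58.8 and 59.6 FPKM in 20G and at 57.9 and 57.5 FPKM in 19G replicates 2 and 3, and at 43.4 FPKM in 19G replicate 1, which is 74.6% of its mean over the other 5. LOC110935903 stood at 16.6, 17.0 and 16.8 FPKM in 20G and at 16.2 and 16.4 FPKM in the same 2 libraries of 19G, but at 8.22 FPKM in 19G replicate 1, the widest departure among the 200 chosen in this way. LOC110912223 stood at 79.2% of its 5-library mean in 19G replicate 1. LOC110911738 and LOC110900223, which belong to the 10 steadiest over all libraries, stood there at 90.9% and 105.6%.

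**Figure D4:**
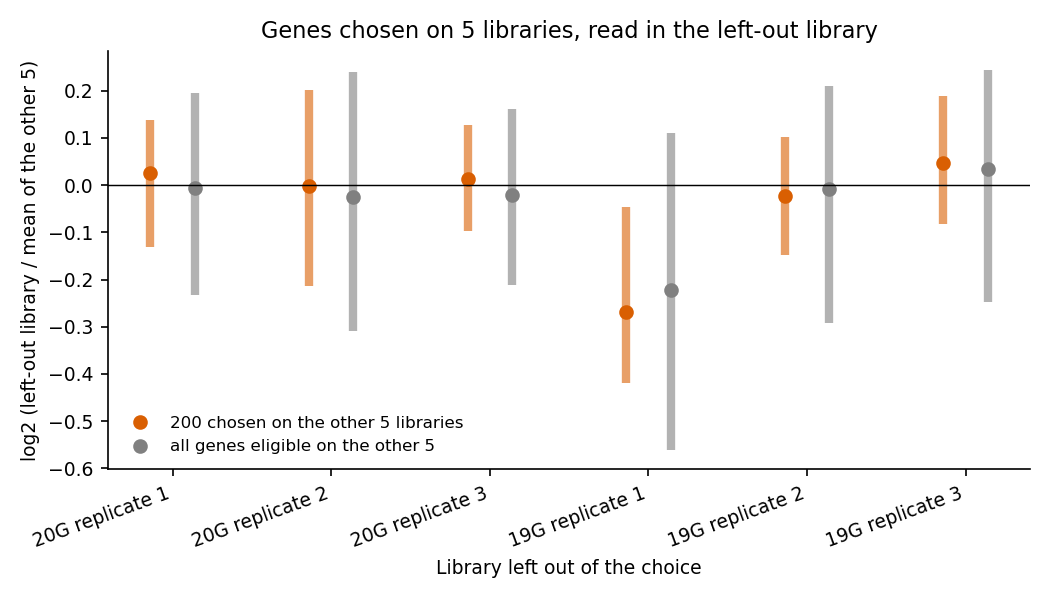
log2 ratio of the left-out library to the mean of the other 5, for the 200 genes chosen on those 5 (orange) and for all genes eligible on them (grey), with points at the median and bars over the middle quartiles. The orange bars are shorter than the grey ones in each library, and in 19G replicate 1 both groups are centred below 0, at -0.27 for the chosen and -0.22 for the eligible genes.

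Genes were also chosen within a single line, on its 3 libraries, and read in the other line. This choice used fewer libraries than the one above and was read by other measures, so their results cannot be set against each other. The 200 genes with the lowest CV over the 3 libraries of 20G had a median CV of 1.65% there and of 17.1% in 19G, beside 20.2% in 19G for all genes eligible on 20G. The 200 chosen on 19G had a median CV of 1.99% there and of 13.7% in 20G, beside 14.8% for all genes eligible on 19G. The CVs in the line that did not choose rested largely on single libraries. Without 19G replicate 1, those in 19G were 7.93% for the chosen and 9.33% for the eligible genes. Without 20G replicate 2, those in 20G were 7.84% and 9.16%. Line means lay within 1.25-fold of each other for 66.0% of the genes chosen on 20G, beside 57.3% of those eligible, and for 65.5% of the genes chosen on 19G, beside 59.1%. A difference of at least 2-fold between the lines was present in 15 of the 200 chosen on 20G (7.50%), beside 11.2% of those eligible, and in 9 of the 200 chosen on 19G (4.50%), beside 9.33%.

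Single genes, named after their values were seen because their line ratios were the largest of their lists, show how far steadiness within a line can go with a difference between lines. LOC118489123 was chosen on 20G, where it stood at 59.9, 58.6 and 59.6 FPKM, and had 3.46, 4.73 and 4.69 FPKM in 19G. LOC110928597 was chosen on 19G: it was listed at 0, 0 and 0.109 FPKM in 20G and stood at 44.2, 42.8 and 43.3 FPKM in 19G. LOC118481677, also chosen on 19G, had 38.95, 19.9 and 32.8 FPKM in 20G and 229, 234 and 230 FPKM in 19G. In these extremes, low spread over 3 libraries of a line went with nearly no signal, or with several times less, in the other. LOC118489123 and LOC110928597 could be chosen because the floor was applied only in the choosing line. Over the whole lists, a difference of at least 2-fold was rarer than among eligible genes, as given above.

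The lists of the 2 lines shared 4 genes, or 2.00% of each. Each list held 200 genes, of 8829 eligible on 20G and 7963 eligible on 19G. Unrelated lists of that size would also share a few genes, so nothing is read from the count. LOC110915554 stood at 125, 124 and 123 FPKM in 20G and at 162, 160 and 156 FPKM in 19G. LOC110886115 stood at 16.9, 16.3 and 16.8 FPKM in 20G and at 22.9, 24.1 and 23.0 FPKM in 19G. LOC110936720 stood at 26.0, 26.6 and 27.0 FPKM in 20G and at 22.1, 21.5 and 21.3 FPKM in 19G. In these 3 genes the lines were apart and each was tight, with 20G lower in LOC110915554 and LOC110886115 and higher in LOC110936720, and all 3 lie outside the 200. Only the fourth, LOC110922126, belongs to the 200, at 24.1, 25.04 and 24.0 FPKM in 20G and 25.7, 26.9 and 26.5 FPKM in 19G, again without overlap.

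Which genes made up the 200 depended on the scale and on single libraries. Ranking by the SD of log2(FPKM + 1) kept 187 of them and ranking by the ratio of highest to lowest FPKM kept 173. Dividing by summed FPKM kept 130, quantile normalization 92 and median-of-ratios scaling 35. Leaving out 19G replicate 1 kept 68 and leaving out 20G replicate 2 kept 103, while leaving out any other library kept 129 to 140. Of the 10 steadiest genes, all 10 were kept without 19G replicate 1 and after division by summed FPKM, 5 after quantile normalization and 2, LOC110939678 and LOC110911738, after median-of-ratios scaling. LOC110895706 ranked 1 after division by summed FPKM, with a CV of 2.14%, and 822 of 7261 eligible genes after median-of-ratios scaling, with a CV of 9.92%.

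**Figure D5:**
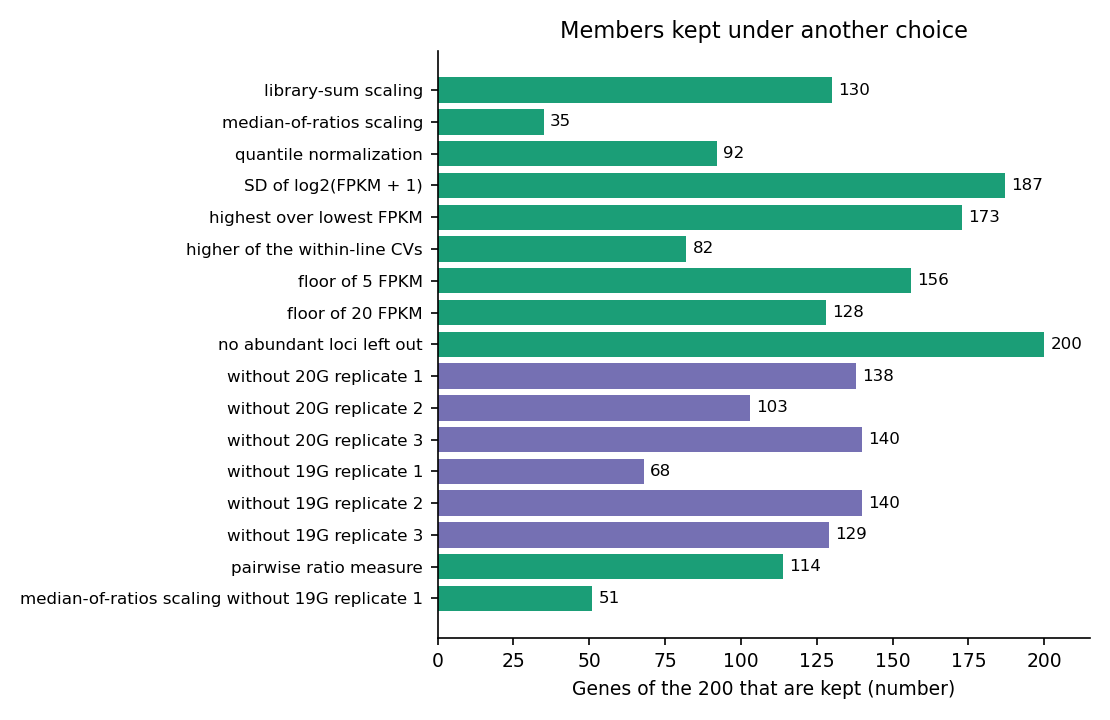
Number of the 200 genes that are also among the 200 lowest under another scaling, measure of spread, floor or set of abundant loci left out, or with a single library left out (purple). The shortest bars are median-of-ratios scaling with 35 genes, the same without 19G replicate 1 with 51, leaving out 19G replicate 1 with 68 and the higher of the within-line CVs with 82.

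A small group stayed among the 200 on all 4 scales, deposited FPKM included: 11 genes, named after their values were seen. Besides LOC110939678 and LOC110911738 they were LOC110886988, LOC110871451, LOC110865089, LOC110904961, LOC110935950, LOC110944743, LOC110886307, LOC110940324 and LOC110880115. All but LOC110880115 were also kept without 19G replicate 1. LOC110865089 stood at 24.5, 24.0 and 24.1 FPKM in 20G and at 22.0, 24.7 and 25.4 FPKM in 19G, with CVs of 4.82% as deposited, 7.24% after division by summed FPKM, 3.32% after median-of-ratios scaling and 2.03% after quantile normalization. LOC110904961 stood at 17.5, 17.8 and 18.2 FPKM in 20G and at 16.2, 18.3 and 18.5 FPKM in 19G, with CVs of 4.83%, 7.03%, 4.03% and 2.61% on the same scales. The value of 19G replicate 1 was the lowest of the 6 in all 11 genes of the group, as it was in 60 of the 200. The choice of the group favours this. Median-of-ratios scaling raises 19G replicate 1 against the other libraries, so a gene steady on both scales tends to be low there as deposited.

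Of the other members of this group, LOC110871451 had 67.1, 62.3 and 69.3 FPKM in 20G and 62.3, 68.4 and 66.8 FPKM in 19G. LOC110935950 had 34.4, 34.5 and 32.5 FPKM in 20G and 30.9, 35.3 and 32.6 FPKM in 19G. LOC110940324 had 24.0, 26.0 and 26.1 FPKM in 20G and 22.6, 25.1 and 25.4 FPKM in 19G. Line means in the 11 genes differed by a fold of 0.997 to 1.05, and values of 20G and 19G overlapped in every one. Because the group was picked from these values, no test of it is given.

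Spread as low as that of the 200 was seen outside them too. Of 397 new loci, transcripts that the authors list beside RefSeq genes, with at least 10 FPKM in all 6 libraries and outside the 100 most abundant, 2 (0.504%) had a CV no higher than that of the last gene kept, where 2.80% of eligible RefSeq genes did. They were named after their values were seen. Helianthus_annuus_newGene_30176 stood at 14.7, 14.7 and 15.3 FPKM in 20G and at 14.9, 15.8 and 15.1 FPKM in 19G, and its CV of 2.74% lies between those of LOC110915444 and LOC110900223. Helianthus_annuus_newGene_5964 had a CV of 5.47%. The median CV of the new loci was 24.4%. Among 11871 RefSeq genes at 1 FPKM or more in all 6 libraries and under 10 in at least 1, 82 (0.691%) were as steady, and among the 100 most abundant loci, whose median CV was 35.4%, 0 were.

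In the gene order of the RefSeq table, all 200 genes could be placed, and 4 pairs of them were immediate neighbours. LOC110890161 stood at 70.2, 70.5 and 73.7 FPKM in 20G and at 73.8, 63.8 and 68.5 FPKM in 19G. Its neighbour LOC110890162 stood at 120, 122 and 135 FPKM in 20G and at 110, 123 and 117 FPKM in 19G. The pair therefore differed in level and in which library was highest. The others were LOC110879553 with LOC110879551, at means of 13.4 and 74.99 FPKM, LOC110912989 with LOC110912988, at 47.4 and 52.9 FPKM, and LOC110930530 with LOC110930531, at 13.6 and 12.4 FPKM. Whether neighbours are copies that share reads was not examined.

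Of the 400 nearest tested RefSeq genes on either side of the 200, 8 were themselves among the 200. Of the 13875 neighbours of the other eligible genes, 121 were. Of the remaining 392 neighbours of the 200, not chosen for their own values, 34 (8.67%) were called between 20G and 19G by the limma rule. The share was 10.5% for the neighbours of the other eligible genes with the 200 likewise left out. At least 1 called neighbour lay beside 32 of the 200 (16%), 19.3% of the other eligible genes and 21.1% of all. These shares keep in neighbours among the 200, none of which was called. With the 200 left out, the median CV of the neighbours was 27.7% for the 200 and 28.3% for the other eligible genes. Nearby genes share chromosome stretches, and no test of these shares was made.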

How the data were processed

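The values deposited by the authors are FPKM per locus, a unit named in the labels. An aligner, a genome build and filters: not given in the sources used here. Poly(A) RNA was selected with oligo(dT), per the labels' protocols. A library field names single cells, but the deposited tables are bulk, with a single FPKM for each locus and library. The 57126 RefSeq identifiers all matched the RefSeq gene table of HanXRQr2.0-SUNRISE, used for names and gene order only. Groups and replicate numbers came from the sample titles.

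Read counts are not recoverable from FPKM, so depth is unknown and no counting error is given. Ratios between libraries over loci with both values below 0.1 FPKM gave a weak common step, placed where most ratios fell, with 139 of 13547 on it and 32.8 in bins of equal width beside it. Read as the worth of 1 fragment, it would put the libraries at 88.9% to 100% of the deepest. Because the step was placed where most ratios fell, an excess on it is built in, and these percentages do not establish depth. No count test was run.

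The members and lists were chosen with earlier results of these data known. Genes named in the text were the 10 of lowest CV, the 3 on either side of the boundary, the 3 of highest and of lowest mean and the 3 of largest and smallest line ratio; others are said to be named after their values were seen. Ratios and differences are 20G over 19G. For the fit over all loci, log2(FPKM + 1) was given to limma 3.58.1 (R 4.3.3) with its trend option; this scale understates changes of low loci (two-sided, Benjamini-Hochberg adjustment over all 28292 tested loci). Choice and fit were run on simulated data only to check the code. The planted steady genes were set well apart in CV from all others. The real boundary has no such gap, so that run says nothing about genes near it. CVs were computed in Python 3.11.15 with pandas 2.3.3. The planned gene lists by product, and the promoter and protein comparisons, were not made because no table used here holds products or sequences. The alternatives tried are given in the closing section.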

Additional observations from a re-analysis of the deposited data

How the results depend on the processing

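Of the 200 genes, 130 were kept after division by summed FPKM, 35 after median-of-ratios scaling, 92 after quantile normalization, 82 when ranked by the higher of the within-line CVs and 128 with a floor of 20 FPKM, which by construction keeps the 128 genes at that level in every library. A floor of 5 FPKM kept 156, and leaving in the 100 most abundant loci kept 200. With each library left out, 68 to 140 were kept, 68 without 19G replicate 1, 103 without 20G replicate 2 and 129 without 19G replicate 3. Under alternatives chosen after seeing the data, 114 were kept by the mean SD of log2 ratios to every other eligible gene, a measure that needs no library scale, and 51 by median-of-ratios scaling without 19G replicate 1. For genes chosen on 5 libraries and read in the sixth, the share within 1.25-fold in 19G replicate 1 was 76.5% after median-of-ratios scaling, also chosen after seeing the data, against 52.5% as deposited; in the other 5 libraries the shares were 67.5% to 94.0% as deposited, 72.0% to 93.0% after division by summed FPKM and 72.0% to 93.5% after median-of-ratios scaling. For genes chosen on 1 line, line means within 1.25-fold were 74.0% (chosen on 20G) and 73.0% (chosen on 19G) after median-of-ratios scaling, and 59.0% to 65.5% and 56.0% to 69.0% with each library left out, 56.0% without 19G replicate 1. Loci called between lines numbered 4849 of 28292 tested. Where only the 17455 loci with a mean of at least 5 FPKM were tested, 1860 were called, a smaller share as well as a smaller number. With each library left out, 4345 to 5690 were called, 5690 without 19G replicate 1. Deviations of libraries with the same replicate number correlated at 0.24, -0.01 and 0.13. Without the values for unlike numbers, these cannot decide whether the numbers pair the libraries. The main fit did not use the number, and a fit with it as replicate block called 5126 loci. In each of these limma fits 0 of the 200 genes were called, and 0 had an unadjusted p under 0.05. The cause of these shifts was not tested. Promoter alternatives were not run because no promoter sequences were used here. Depth is unknown, so how far counting error sets the CVs of genes near 10 FPKM cannot be stated.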
